A study of Homo sapiens with 8 samples.

Results

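AT7519 added to OSMI-2 is the comparison of LNCaP libraries treated with both agents, called the combination here, against libraries treated with OSMI-2 alone. Its members are the genes whose normalised read counts averaged 10 or more over these 4 libraries. They were 19540 of the 55737 genes in the table (35.1%) and held 99.971% of the summed values of the 4 libraries. At the edge of the rule, 139 genes had a mean from 10 to 10.5 and 138 genes a mean from 9.5 to 10.

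LNCaP, a line of human prostate cancer cells, depends on androgen signalling. RNA sequencing was done on 4 groups of 2 libraries, all from cells harvested after 4 h: control, 40 µM OSMI-2, 0.5 µM AT7519, and 40 µM OSMI-2 with 0.5 µM AT7519. These doses follow the design text of the series, whereas the treatment field of the labels prints the same numbers in mM. The carrier given to the control cells is not stated, and nothing says whether the 2 libraries of a group came from separate cultures, so the p-values reflect no more than the spread of these libraries, and that may be technical. The series asks how prostate cancer cells depend on CDK9 once O-GlcNAc transferase is blocked, and the comparison here shows what AT7519 changed in cells that already received OSMI-2.

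OSMI-2 inhibits OGT, the enzyme that places single N-acetylglucosamine sugars on nuclear and cytoplasmic proteins. AT7519 inhibits several cyclin-dependent kinases, CDK9 among them. CDK9 and cyclin T form P-TEFb, which phosphorylates RNA polymerase II and its pausing factors so that the paused polymerase moves into the gene body, and which is held inactive in a complex of 7SK RNA, HEXIM proteins, LARP7 and MEPCE. When such kinases are blocked, transcripts with short half-lives are the first to run down, since they depend on continued transcription.

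The libraries held 60152710 to 154367238 reads in genes, and the second combination library, with the lowest of these totals, was the shallowest. In it, 3 reads correspond to a normalised count of 5.47, against 2.49 to 3.08 in the other 3 libraries compared here. Across the members, log2 values of the 2 OSMI-2 libraries correlated with r = 0.993 and those of the 2 combination libraries with r = 0.988, over genes that are not independent. Messages of the mitochondrial genome held 4.99% and 5.53% of the OSMI-2 libraries and 7.73% and 7.33% of the combination libraries, and the 10 most abundant genes held 7.74% and 8.27% against 11.3% and 10.8%. Of 125 genes named with values here, 21 overlap a coding gene on the other strand in the annotation, among them MEPCE, BRD2, CCND1, CDK4 and PPP1R10, and since the strand used for counting is not given, reads of such pairs cannot be told apart. The 13 luminal prostate markers were detected in all 8 libraries. The 5 leukocyte markers summed to at most 18.6 normalised counts in any library. The 6 fibroblast markers, of which at least 1 was at 0 in every library, summed to 2288 and 3018 with OSMI-2 and to 3662 and 4382 with the combination, and the part of this in the results was not tested.

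Adding AT7519 to OSMI-2 changed most of the genes that could be tested. With limma and an adjusted p below 0.05, 5356 genes rose (27.4% of 19540) and 5298 fell (27.1%), so that 10654 (54.5%) were called. All counts of list members below are to be read against these shares. For 15107 genes (77.3%), both libraries of one group lay above both of the other. The falls were the larger changes: the median size among genes that fell was 0.95 on the log2 scale, against 0.58 among those that rose. A fall of at least 1 log2 unit was called for 2476 genes (12.7%) and a rise of that size for 775 (3.97%). All fold changes here are on the scale of log2(normalised count + 1), which understates the change of weakly expressed genes.

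The split between rises and falls depends on the scaling. The authors' size factors put the median gene at 0.04 log2 units, and 50.3% of the calls were then rises. With the libraries scaled to equal totals the median gene stood at -0.29 and 21.4% of the calls were rises. Scaled to equal mitochondrial messages, it stood at -0.81 and 3.1% were rises. Changes below are therefore relative to the median gene of the deposited scaling. Because the values are read counts divided by a size factor for each library, neither the RNA per cell nor the number of cells can be read from them.

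**Figure D1:**
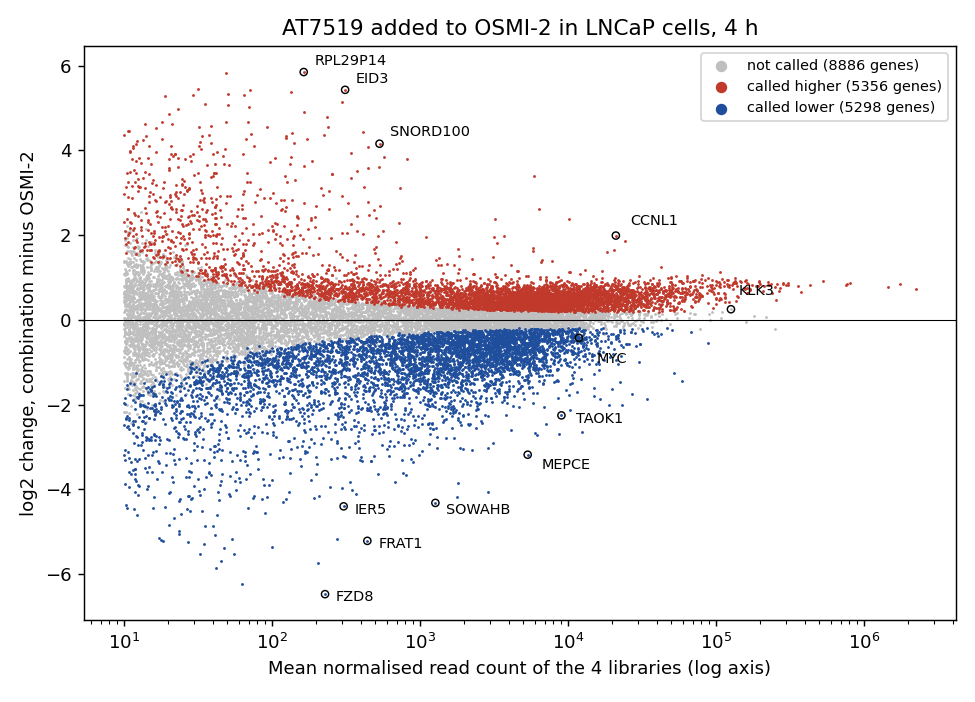
Change of each member (log2 of the combination minus OSMI-2, vertical axis) against its mean normalised read count over the 4 libraries (horizontal log axis), 1 point per gene. The 5298 called falls (blue) reach -6.48 and spread far below the axis at all but the highest levels, whereas most of the 5356 called rises (red) lie in a narrow band under 1 log2 unit, with the larger rises among genes with low counts.

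The same agent given without OSMI-2 acts as the closest comparison, and it shares no library with this one. AT7519 against control called 10321 of the same 19540 genes (52.8%), 5030 higher (25.7%) and 5291 lower (27.1%). Across genes, which are not independent, the effects of AT7519 with and without OSMI-2 correlated with r = 0.840. Both comparisons called 4288 genes lower, which is 80.9% of the genes that fell with OSMI-2 present and 81.0% of those that fell without it. Both called 4337 genes higher, 81.0% and 86.2% of the respective rises, and 21 genes were called in opposite directions.

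The largest fall was that of FZD8, a Frizzled receptor for Wnt ligands. It held 471 and 435 normalised counts with OSMI-2 and 8.20 and 1.82 with the combination, and fell by 6.48 ± 0.44 log2 units (SE, adjusted p = 4.63e-08). With 9 reads left in the 2 combination libraries together, that size has a wide counting error, although no value of one group came near the other. FRAT1, which promotes Wnt signalling by binding the kinase GSK3, went from 864 and 845 to 51.3 and 9.12 (-5.22 ± 0.50). SOX9, a transcription factor of progenitor cells, went from 143 and 204 to 10.3 and 3.65 and fell by 4.57.

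IER5, an immediate early gene, held 632 and 529 with OSMI-2 and 47.2 and 14.6 with the combination (-4.40 ± 0.36, adjusted p = 2.48e-07). OTUD1, a deubiquitinase, went from 589 and 466 to 44.1 and 3.65 and fell by 5.18. In all 5 of these genes the second combination library, the shallowest, was the lower of its pair, and both combination libraries lay far below both OSMI-2 libraries. The part of depth in the gap within the pair was not tested. SOWAHB, an ankyrin repeat gene, was more evenly measured, at 2348 and 2507 against 139 and 104 (-4.32 ± 0.20, adjusted p = 3.58e-09). Of the 15 largest falls among genes with a mean of at least 50, 14 were of protein-coding genes and 7 of those had a single exon.

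Among abundant messages the falls were smaller and tightly reproduced. TAOK1, a kinase of the MAPK cascades, held 14852 and 15098 with OSMI-2 and 3139 and 3135 with the combination, which gave one of the smallest adjusted p among the falls (-2.25 ± 0.08, adjusted p = 9.57e-10). MED13, a subunit of the Mediator kinase module, held 11373 and 10909 against 2728 and 2637 (-2.05 ± 0.08). The groups of neither gene overlapped, and the 2 libraries of each group lay close together.

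**Figure D2:**
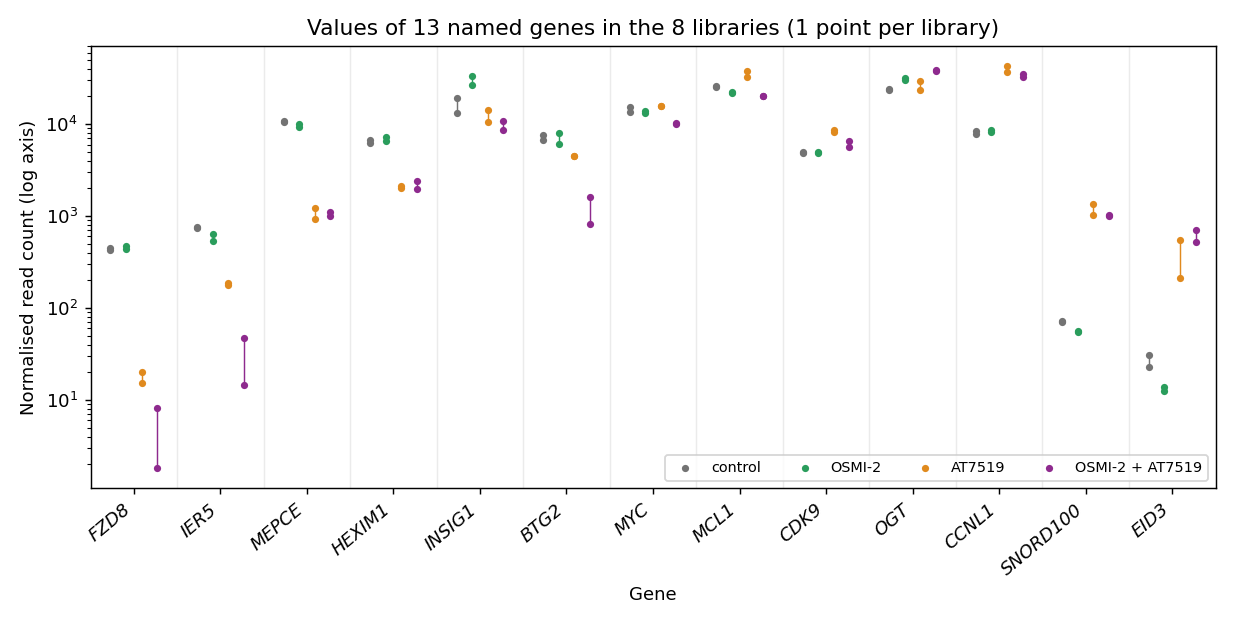
Normalised read counts (log axis) of 13 named genes in each of the 8 libraries, 1 point per library and a line joining the 2 libraries of a group. FZD8, IER5, MEPCE, HEXIM1 and BTG2 are low in both combination libraries, and MEPCE and HEXIM1 are about as low with AT7519 alone. INSIG1 is highest in the OSMI-2 libraries, and SNORD100 and EID3 are high wherever AT7519 was given.

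The largest rises were of a different kind. Of the 15 largest, 13 matched the annotation, and 11 of these are genes without introns that lie inside a coding gene on the same strand. Over all 15778 matched genes, 469 are of that class. RPL29P14, MIR3687, MIR3680-1, COX7A2P1, SNORD91A, RNU6-807P, MIR3648 and SNORD72 averaged below 10 with OSMI-2 (means 2.30 to 6.23). These members of the 15 passed only through the combination libraries. The rule therefore favours their rise, and the counts above were not repeated without them. RPL29P14, a ribosomal protein pseudogene within CSNK1A1, rose from 10.8 and 1.66 to 322 and 323 (5.85 ± 0.55, adjusted p = 8.31e-07). EID3, an intronless coding gene within TXNRD1, rose from 13.7 and 12.4 to 700 and 525 (5.43 ± 0.37). RNF138P1, a pseudogene within PLPP1, rose from 16.7 and 14.1 to 484 and 686 (5.14 ± 0.31). In such genes, reads of the gene and reads of unspliced host RNA cannot be told apart in the deposited counts.

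Small nucleolar RNAs guide the chemical modification of ribosomal RNA and are cut out of the introns of host genes. Of 166 small nucleolar and Cajal body RNAs tested, 117 rose and 4 fell, with a median change of 1.75 against 0.04 over all genes, and the median stayed above 0 under every scaling tried. These are the members that passed, of 409 in the table, and 40 of the 166 had a mean below 10 with OSMI-2 and so passed only through the combination libraries. Among the other 126, 84 rose and 4 fell, with a median of 1.235. The sequences of 3 box C/D members with large rises follow, because their short length and their place in an intron bear on how reads are assigned to them. They are GENCODE release 29 transcripts (GRCh38, 5′ to 3′), and capitals mark the letters TGATGA of the C box and CTGA of the D box.
SNORD37: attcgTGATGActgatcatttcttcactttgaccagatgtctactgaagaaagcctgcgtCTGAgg
SNORD14A: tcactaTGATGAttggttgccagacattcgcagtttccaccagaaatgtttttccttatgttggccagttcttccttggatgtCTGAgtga
SNORD100: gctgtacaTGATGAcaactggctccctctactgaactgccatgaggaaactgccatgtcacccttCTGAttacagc

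SNORD37, of 66 bases, lies in an intron of EEF2 (chr19:3982507-3982572, minus strand). It held 18.6 and 13.3 normalised counts with OSMI-2 and 432 and 487 with the combination (4.78 ± 0.41, adjusted p = 3.39e-07), while EEF2, the factor that moves the ribosome along the message, rose by 0.66, which turned to -0.19 with equal mitochondrial messages and -0.03 after quantile normalisation. SNORD14A, of 91 bases, lies in RPS13 (chr11:17074654-17074744, minus strand) and went from 28.5 and 44.7 to 774 and 802 (4.43 ± 0.29), with its host at 0.91. SNORD100, of 76 bases, lies in RPS12 (chr6:132816802-132816877, plus strand) and went from 55.9 and 55.5 to 1019 and 1007 (4.16 ± 0.19), with its host at 0.94. With AT7519 alone they held 214 and 352, 530 and 986, and 1031 and 1349. Both values of SNORD37 lay below both with the combination, both of SNORD100 above, and those of SNORD14A on either side. The limma test of the AT7519 effect with OSMI-2 against that without called none of them (adjusted p = 0.816, 0.688 and 0.951 for SNORD37, SNORD14A and SNORD100).

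Of those that passed, 151 small nucleolar and Cajal body RNAs matched the annotation and 134 of them had a tested coding or noncoding host on the same strand. The change of the small RNA exceeded that of its host in 118 of the 134, with a median excess of 1.38 log2 units. Box C/D members had a median change of 1.96 (60 of 77 rose), H/ACA members 1.82 (41 of 59) and Cajal body RNAs 1.17 (7 of 15). These values include members that passed only through the combination libraries, such as SNORD15A (mean 0 with OSMI-2). The rule favours a rise in such members, and so an excess over the host. Neither the excess nor these medians were computed without them. Of the 17 small nucleolar RNA host genes on a separate list, spliced noncoding RNAs from which these guides are cut, 13 rose and none fell at this threshold. SNHG1, one of them, held 9870 and 9859 with OSMI-2 and 32158 and 29945 with the combination (1.65 ± 0.10, adjusted p = 1.53e-08).

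Intronless genes were then compared by position, whatever their type. Of 469 intronless genes of all types that lie inside a coding gene on the same strand, 252 rose (53.7%) and 29 fell (6.18%), with a median of 1.16. Of 231 inside a coding gene on the other strand only, 70 rose (30.3%) and the median was 0.46. Of 951 outside any coding gene, 255 rose (26.8%) and 188 fell (19.8%), with a median of 0.27. With OSMI-2 139, 15 and 55 genes of these 3 classes had a mean below 10 and passed only through the combination libraries. Without them, 145 of 330 rose on the host's strand (43.9%), 65 of 216 on the other strand (30.1%) and 231 of 896 outside coding genes (25.8%). Processed pseudogenes, intronless copies of spliced messages, rose in 64 of 148 cases on the host's strand, in 64 of 175 on the other strand and in 143 of 477 outside coding genes. These counts were not repeated without members that passed only through the combination libraries. Reads shared with their parent genes were not separated here.

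**Figure D3:**
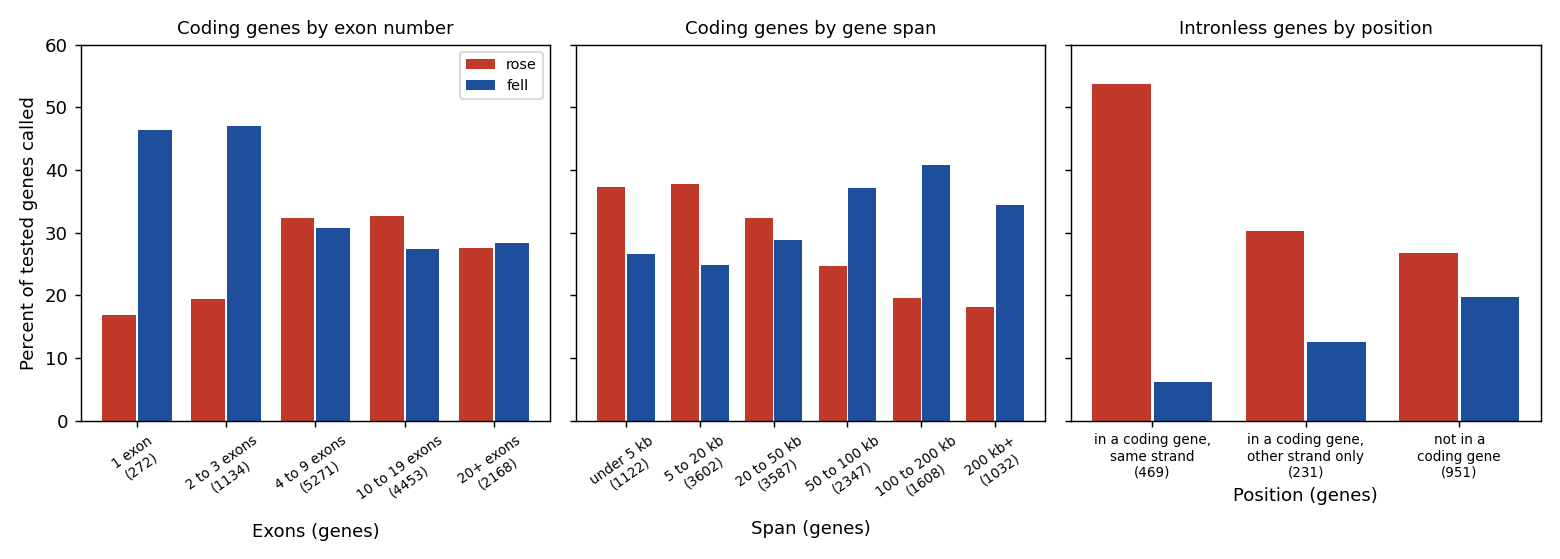
Percent of tested genes that rose (red) and fell (blue) in each class, with the number of genes in brackets: coding genes by exon number, coding genes by span of the gene, and intronless genes of all types by position. Falls were most frequent among coding genes with 1 to 3 exons, and rises among intronless genes inside a coding gene on the same strand (53.7%). That share includes 139 genes that passed only through the combination libraries, and is 43.9% without them.

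Coding genes with few exons fell most often. With 1 exon, 126 of 272 fell (46.3%) and 46 rose, and with 2 to 3 exons 533 of 1134 fell (47.0%) and 221 rose, against 4111 of 13298 coding genes in all (30.9%). From 10 to 19 exons, 1217 of 4453 fell (27.3%). These classes also differ in level, with a median of 431 normalised counts at 1 exon and 3019 at 10 to 19 exons, and the part of this in the difference was not tested. By span, falls were most frequent from 100 to 200 kb, where 656 of 1608 coding genes fell (40.8%) and 316 rose. Under 5 kb, 298 of 1122 fell (26.6%) and 419 rose. The share that fell did not climb steadily with span, at 24.9% from 5 to 20 kb and 34.4% at 200 kb or more. Span classes differ in level too, with a median of 1054 under 5 kb and 2646 at 100 to 200 kb, and its part was not tested.

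MEPCE, HEXIM1 and HEXIM2, inhibitory partners of P-TEFb, fell, while its kinase was slightly higher in the deposited scaling. Of 7 genes of P-TEFb and the 7SK complex, 4 fell and 2 rose. MEPCE, which caps 7SK RNA, held 10041 and 9261 with OSMI-2 and 1120 and 1005 with the combination (-3.18 ± 0.12, adjusted p = 1.34e-09). HEXIM1, the inhibitor that binds P-TEFb through 7SK, held 6538 and 7259 against 1950 and 2409 (-1.67 ± 0.11, adjusted p = 3.29e-08). Its relative HEXIM2 fell by 2.03 log2 units, and in each of the 3 genes both combination libraries lay below both OSMI-2 libraries. With AT7519 alone MEPCE held 1222 and 920, against 10631 and 10745 in control. HEXIM1 held 2043 and 2124 with AT7519 alone, against 6261 and 6719 in control. LARP7, which stabilises 7SK RNA, held 6933 and 6858 against 7153 and 6565 and was not called (-0.0089 ± 0.10, adjusted p = 0.950).

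CDK9 held 4965 and 4904 with OSMI-2 and 6621 and 5663 with the combination, a rise of 0.31 ± 0.09 (adjusted p = 0.00917) that turned to -0.02 with equal totals and -0.54 with equal mitochondrial messages. It was no longer called without the second OSMI-2 library (0.30) or the first combination library (0.20). CCNT2, a cyclin T partner, rose by 0.32, turned to -0.01 and -0.53 under the same scalings and lost its call without the first OSMI-2 library (0.28) or the first combination library (0.28). CCNT1, the main cyclin partner, held 9976 and 10492 against 8183 and 5845 and fell by 0.56 ± 0.12 (adjusted p = 0.00102). With AT7519 alone, CDK9 changed by 0.77 and CCNT1 by 0.23, the latter without passing the threshold (adjusted p = 0.116).

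BET proteins bring P-TEFb to acetylated chromatin, and of their 4 genes 2 fell and none rose by this test. BRD2 held 15698 and 14684 against 6691 and 5719 and fell by 1.30 ± 0.09 (adjusted p = 4.02e-08), and BRD3 fell by 0.72. Of 10 genes of the super elongation complex, which carries P-TEFb to paused polymerase, 7 fell and none rose (median -0.57), among them the scaffold AFF1 (-1.42 ± 0.10) and the elongation factor ELL2 (-1.05 ± 0.12).

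Genes of the pausing factors NELF and DSIF and of the PAF1 complex, taken as 1 list, were mixed, with 7 of 13 higher and 3 lower. Their median of 0.26 turned to -0.07 with equal totals. The NELF subunit NELFCD rose by 0.81 ± 0.09 and the DSIF subunit SUPT5H by 0.55 ± 0.09, although both took the other sign with equal mitochondrial messages. LEO1 of the PAF1 complex, which travels with elongating polymerase, fell by 0.77 ± 0.08. Other transcriptional kinases split as well, with 5 of 12 higher and 4 lower: CDK13, a kinase of elongating polymerase, fell from 4903 and 4520 to 1702 and 1880 (-1.40 ± 0.10), and CDK7, the kinase of TFIIH, fell by 1.15 ± 0.14.

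CCNL1, a cyclin that acts with the splicing-linked kinase CDK11, was among the 5 genes that rose with the smallest adjusted p. It held 8238 and 8732 with OSMI-2 and 35125 and 32363 with the combination (1.99 ± 0.08, adjusted p = 1.91e-09). The SR protein kinases CLK3 (1.07 ± 0.10) and CLK1 (0.91 ± 0.11) rose too, and of the 11 genes on that list 4 rose and 2 fell. RBM4, a splicing regulator, held 1066 and 1010 against 5225 and 5522 (2.37 ± 0.10), but its exons are shared with the RBM14-RBM4 readthrough transcript.

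Falls also outnumbered rises among genes of the complexes that link polymerase to regulators and to RNA cleavage. Among 30 Mediator subunits 16 fell (53.3%, against 27.1% over all genes) and 4 rose (13.3%, against 27.4%). MED18 of the head module held 2044 and 2025 against 552 and 252 (-2.45 ± 0.24). Among 29 genes of Integrator, cleavage and termination 15 fell (51.7%) and 7 rose (24.1%, near the share over all genes). PCF11, a termination factor, held 8723 and 9519 against 3580 and 3671 (-1.33 ± 0.08). INTS5, an Integrator subunit, fell by 2.16 ± 0.12, and it overlaps a coding gene on the same strand.

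Signal-responsive genes fell as a group. Of 23 immediate early genes tested, which respond within minutes to growth signals, 19 fell and 2 rose, with a median of -1.79 against 0.04 over all genes. SGK1, a serum-induced kinase, went from 172 and 201 to 17.4 and 9.12 (-3.77 ± 0.35). BTG1 and BTG2, which slow proliferation and promote mRNA deadenylation, went from 5389 and 4861 to 852 and 461 (-3.03 ± 0.21) and from 8076 and 6030 to 1626 and 821 (-2.59 ± 0.22). CYR61, a secreted matrix protein, fell from 712 and 660 to 107 and 65.7 (-3.02 ± 0.21, adjusted p = 5.40e-08). JUND, a JUN family member, rose by 0.78 ± 0.16 but stood at -0.08 with equal mitochondrial messages.

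Feedback inhibitors followed the same direction. Of 14 MAPK phosphatases and Sprouty genes, which damp growth factor signalling, 11 fell and 2 rose (median -1.78). DUSP4, a nuclear ERK phosphatase, went from 1406 and 1177 to 265 and 184 (-2.54 ± 0.21), whereas DUSP1, a stress-induced phosphatase, rose by 0.39 ± 0.11, took the other sign with equal mitochondrial messages and was not called without the first OSMI-2 library (0.37) or the second combination library (0.30). Of 12 BMP and TGF-beta feedback genes 10 fell and 1 rose. BAMBI, a decoy receptor, fell by 2.63 ± 0.36 and TGIF1, a SMAD corepressor, by 2.49 ± 0.13. The 1 that rose was ID3, an inhibitor of basic helix-loop-helix factors, with 1588 and 785 against 4568 and 2032; its libraries disagreed within each group, and without the second OSMI-2 library or the first combination library the rise was no longer called, at 0.94 and 0.86. Its relative ID2 fell by 1.98 ± 0.24.

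Many transcription factors of the KLF family and of the Wnt pathway were also lower. Of 16 KLF and SP factors 12 fell and 1 rose. KLF4, a factor of epithelial differentiation, went from 605 and 583 to 70.7 and 76.6 (-3.00 ± 0.18), and KLF5, a growth-linked relative, from 320 and 210 to 28.7 and 34.6 (-3.00 ± 0.29). KLF10, a TGF-beta early gene, rose by 0.63 ± 0.13, with the other sign at equal mitochondrial messages. Of 21 Wnt receptors and targets 17 fell and 1 rose (median -1.46), with FZD8, FRAT1 and SOX9 in front. In the NF-kB pathway 5 of 12 fell and 2 rose, with the inhibitor gene NFKBIE at -1.95 ± 0.24 and the inhibitor gene NFKBIA at 0.62 ± 0.09, the latter with the other sign at equal mitochondrial messages.

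**Figure D4:**
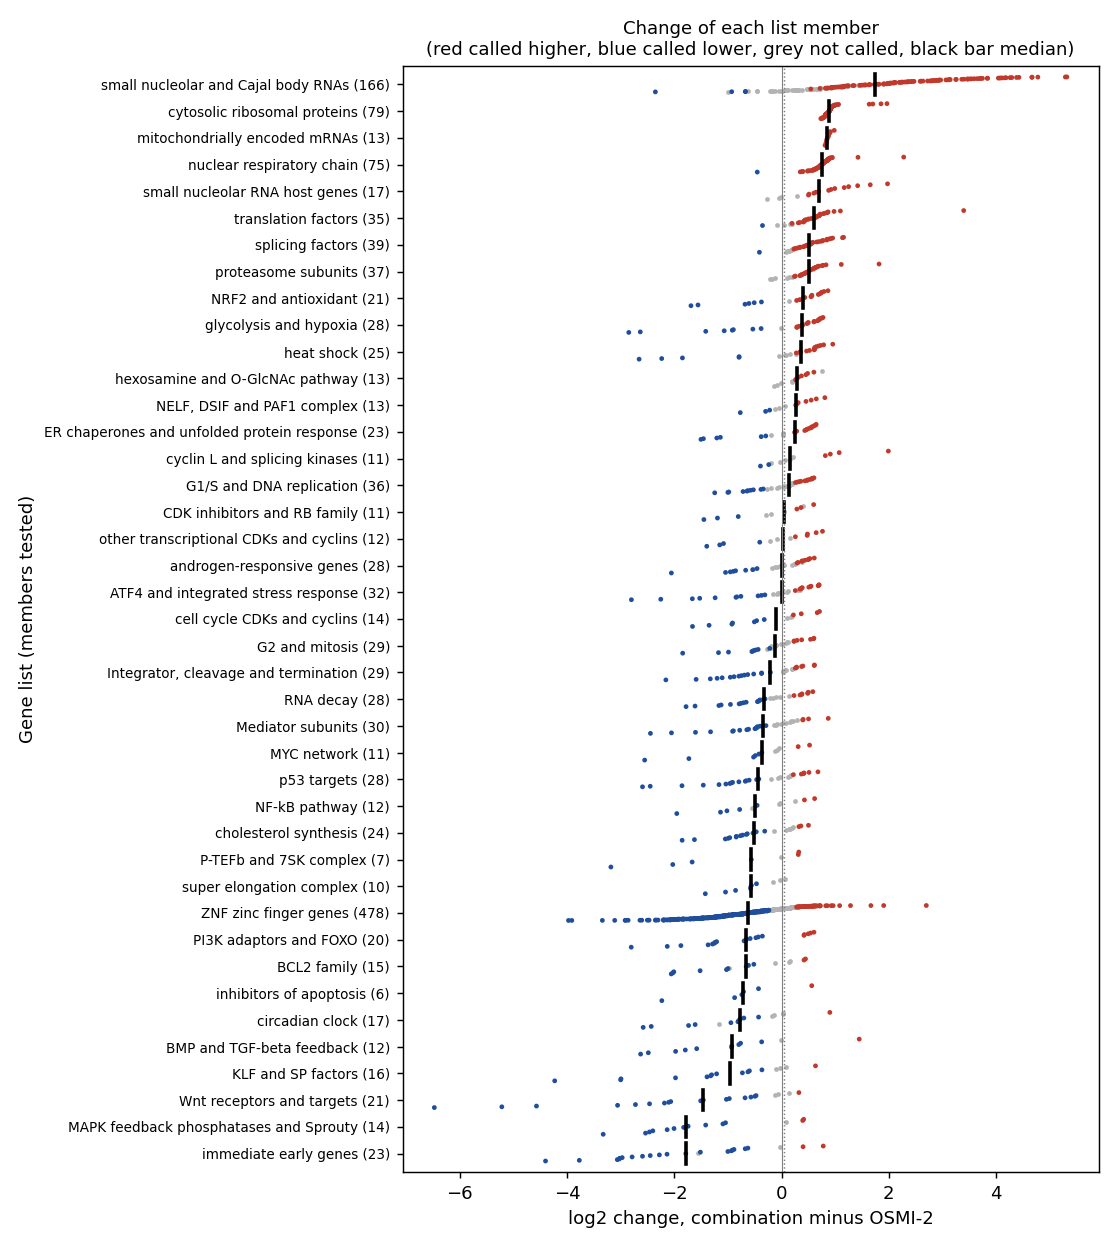
Change of each tested member of the gene lists (log2 of the combination minus OSMI-2, horizontal axis), ordered by the list's median (black bar), with red for called rises, blue for called falls and grey for genes not called; the dotted line is the median of all 19540 genes, 0.04. Immediate early genes, MAPK feedback genes and Wnt genes have the lowest medians (-1.79, -1.78 and -1.46), and small nucleolar RNAs the highest (1.75).

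Of the survival and growth genes most often named with CDK9 inhibition, MYC fell slightly and MCL1 was not called. MCL1, the short-lived BCL2 family protector, held 21629 and 22603 with OSMI-2 and 20373 and 20099 with the combination (-0.13 ± 0.08, adjusted p = 0.195). MYC, the growth regulator, held 13380 and 13845 against 9927 and 10353 and fell by 0.42 ± 0.08 (adjusted p = 0.000349). Both MYC values with the combination lay below both with OSMI-2, and this was also so for MCL1. With AT7519 alone, MCL1 held 38254 and 32764 against 25198 and 25973 in control and MYC 15662 and 15943 against 13649 and 15319.

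Around them, 9 of 15 BCL2 family genes fell and 2 rose (median -0.66). Among BH3-only death genes, PMAIP1, which encodes NOXA, went from 2801 and 2414 to 704 and 553 (-2.06 ± 0.14), BCL2L11, which encodes BIM, from 3426 and 3529 to 721 and 1032 (-2.01 ± 0.15), and BIK fell by 2.03 ± 0.19. BAD, another BH3-only gene, rose from 3680 and 3622 to 4773 and 5179 (0.45 ± 0.09) and stood at -0.41 with equal mitochondrial messages. BAX, a pore former, rose by 0.42 ± 0.09 and took the other sign with equal mitochondrial messages. Of 6 inhibitors of apoptosis 5 fell, led by the TNF receptor partner BIRC3 (-2.23 ± 0.21), and BIRC5, survivin, rose by 0.56 ± 0.08, again with the other sign at equal mitochondrial messages. In the MYC network 6 of 11 fell and 2 rose, and MYCL, a MYC relative, went from 706 and 659 to 130 and 102 (-2.55 ± 0.18).

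Cell cycle genes did not move in one direction. Of 14 cell cycle kinases and cyclins 7 fell and 4 rose. CCND1, cyclin D1, held 19598 and 19691 against 12457 and 15332 and fell by 0.51 ± 0.10 (adjusted p = 0.000479), and CCNE2, cyclin E2, fell by 1.66 ± 0.13. The partner kinases CDK4 (0.71 ± 0.10) and CDK1 (0.66 ± 0.09) rose, although both took the other sign with equal mitochondrial messages. Of 11 CDK inhibitors and RB family genes 3 fell and 3 rose, 27.3% each and near the shares over all genes. CDKN1B, p27, held 9420 and 9173 against 3828 and 3027 (-1.45 ± 0.12). CDKN1A, p21, held 13846 and 13147 against 12018 and 11591 (-0.19 ± 0.09, adjusted p = 0.0739).

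The replication and mitosis lists were near the background of calls. Of 36 G1/S and replication genes 12 rose and 10 fell, and of 29 G2 and mitosis genes 7 rose and 9 fell, with AURKA, a spindle kinase, at -1.84 ± 0.10. Of 28 p53 targets 15 fell and 6 rose (median -0.44). PLK2, a stress-induced polo-like kinase, went from 2107 and 1989 to 464 and 301 (-2.45 ± 0.19), and PPM1D, the phosphatase that turns p53 signalling off, from 2439 and 2184 to 653 and 620 (-1.86 ± 0.11). FDXR, a mitochondrial reductase, rose by 0.68 ± 0.11 and took the other sign with equal mitochondrial messages.

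Rises were frequent among genes of translation and respiration, whose messages are abundant and known to be long-lived. Of 79 cytosolic ribosomal protein genes 78 rose and none fell by the limma test, with a median of 0.89; the 1 not called was RPL36A (0.74, adjusted p = 0.064, and -0.09 with equal mitochondrial messages), named here after its values were seen. RPS15A rose from 10118 and 11013 to 35023 and 41573 (1.85 ± 0.10), but its exons overlap a readthrough gene. Nuclear genes of the respiratory chain rose in 73 of 75 cases (median 0.75), such as NDUFA11 of complex I (1.42 ± 0.12). All 13 messages of the mitochondrial genome rose (median 0.86), MT-ATP8 from 22042 and 28666 to 47172 and 52254. After quantile normalisation 59 of the ribosomal protein genes, 70 of the respiratory chain genes and 2 of the 13 mitochondrial messages were called higher, with medians of 0.22, 0.52 and 0.08. With equal mitochondrial messages, a scaling that sets the third median to about 0 by construction, the first 2 stood at 0.03 and -0.11.

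Translation factors rose in 30 of 35 cases (median 0.61), with the RNA helicase EIF4A2 at 0.98 ± 0.08 and the initiation factor EIF5 the 1 that fell (-0.36 ± 0.08). Splicing factors rose in 31 of 39 (median 0.51), with HNRNPH1 at 64330 and 70113 against 148945 and 146220 (1.14 ± 0.07) and TRA2B at 0.95 ± 0.09, and SRSF5, an SR protein, fell by 0.41 ± 0.09. Proteasome subunits rose in 30 of 37 and none fell by the same test (median 0.50). With equal mitochondrial messages the 3 medians took the other sign, at -0.24, -0.34 and -0.35.

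Zinc finger genes of the ZNF series, many of them repressors, went the other way. Of 478 tested, 300 fell and 44 rose, with a median of -0.63. ZNF784 fell from 918 and 781 to 91.2 and 74.8 (-3.34 ± 0.19), and ZNF460 was among those that rose, from 955 and 779 to 2857 and 2622 (1.67 ± 0.12).

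NCOA2, which encodes a nuclear receptor coactivator, went from 11363 and 10879 to 4601 and 4406 (-1.30 ± 0.08). Of 28 androgen-responsive genes 9 rose and 8 fell, shares near the 27.4% and 27.1% over all genes. KLK3, which encodes PSA, held 103345 and 127264 against 118885 and 156727 (0.25 ± 0.11, adjusted p = 0.0765), with groups that overlap and a sign that turned under 3 of the other scalings; without the second OSMI-2 library it was 0.40 and without the first combination library 0.45, and both were called. MAF, a transcription factor, fell by 2.06 ± 0.21 and SORD, the sorbitol dehydrogenase, rose by 0.61 ± 0.08, which turned to -0.24 with equal mitochondrial messages.

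The enzyme pair that adds and removes O-GlcNAc was higher with the combination in the deposited scaling. OGT, the target of OSMI-2, held 31597 and 30152 against 38849 and 37923 (0.31 ± 0.09, adjusted p = 0.00888), with the other sign under equal totals, equal mitochondrial messages and quantile normalisation, and it was not called without the second OSMI-2 library (0.28) or the first combination library (0.30). MGEA5, which encodes the hydrolase OGA, held 19571 and 20927 against 27258 and 28200 (0.45 ± 0.08, adjusted p = 0.000249), with the other sign under equal mitochondrial messages. For both genes the groups did not overlap in that scaling, which held for 77.3% of all genes tested. Over the 13 hexosamine and O-GlcNAc genes 7 rose and none fell by this test, at a median of 0.29 that became -0.05 with equal totals.

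Lists of stress responses held both rises and falls. Of 25 heat shock genes 15 rose and 5 fell: the mitochondrial chaperonin HSPD1 rose by 0.73 ± 0.08, and the inducible cochaperone DNAJB1 went from 6230 and 6460 to 1545 and 1173 (-2.24 ± 0.13). Of 23 endoplasmic reticulum genes 13 rose and 6 fell, with the chaperone HSP90B1 at 0.64 ± 0.08, the response regulator XBP1 at -1.50 ± 0.14 and the membrane protein HERPUD1 at -1.46 ± 0.11. The rises of HSPD1 and HSP90B1 took the other sign with equal mitochondrial messages. Of 32 ATF4 pathway genes 11 rose and 11 fell, 34.4% each against 27.4% and 27.1% over all genes. CHAC1, a glutathione-degrading enzyme, held 1929 and 1125 against 261 and 170 (-2.80 ± 0.24). CEBPB, a transcription factor, changed by -2.25 ± 0.23, and SHMT2, a mitochondrial folate enzyme, by 0.70 ± 0.08 (-0.16 with equal mitochondrial messages).

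Whether OSMI-2 altered the effect of AT7519 was tested with the difference between the AT7519 effects with and without OSMI-2, in which all 8 libraries take part. The difference was called for 202 genes (1.03% of 19540), 190 of them lower with OSMI-2 present (0.972%) and 12 higher (0.0614%). Over the 190, the median change was -1.21 with OSMI-2 present and -0.35 without it. This count is fragile: it was 4 and 2 without the first or second control library, 11 and 7 without an OSMI-2 library, 72 and 504 without an AT7519 library, and 427 and 51 without a combination library. Every one of the 202 kept its sign in each of these fits, and few, EFNA5 among these, were called in all. The kept signs are little support, as the 202 were picked with mostly the same libraries.

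**Figure D5:**
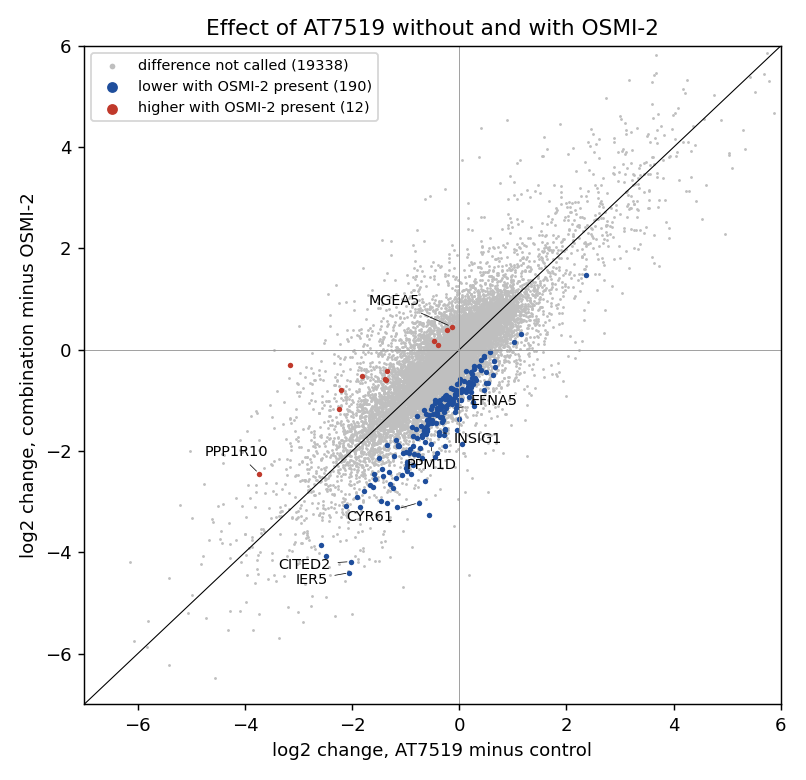
Change with AT7519 in the absence of OSMI-2 (horizontal axis, log2 of AT7519 minus control) against its change in the presence of OSMI-2 (vertical axis, log2 of the combination minus OSMI-2), 1 point per gene and the line of equal effects. The 190 genes called lower with OSMI-2 present (blue) form a band below the line, and the 12 called higher (red) lie above it.

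EFNA5, a membrane-bound ephrin ligand, held 8558 and 9851 normalised counts in control, 8495 and 9603 with OSMI-2, 8834 and 8760 with AT7519 alone, and 3997 and 4111 with the combination (difference -1.09 ± 0.13, adjusted p = 0.00512).

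PPM1D and TOB2, a BTG family member, showed differences of -1.34 ± 0.16 (adjusted p = 0.00512) and -1.21 ± 0.16 (adjusted p = 0.00708), and CYR61 one of -2.27 ± 0.29 (adjusted p = 0.00708). In CYR61, AT7519 alone left 516 and 439 of 838 and 769 counts, whereas the combination left 107 and 65.7 of 712 and 660. The 5 other immediate early genes called lower were IER5 (-2.35), BTG2 (-1.95), BTG1 (-1.68), PLK2 (-1.54) and ZFP36L1, an mRNA decay factor (-0.80), and CITED2, a coactivator of hypoxia and other signals outside that list, differed by -2.16. Among genes of transcription and survival the difference was -0.80 ± 0.17 for CCNT1 (adjusted p = 0.0374), -0.73 for BRD2, -0.60 for MCL1 (adjusted p = 0.0238), -0.55 for MYC (adjusted p = 0.0296) and -1.01 for CDKN1B. None of the genes of this paragraph was called in both fits that leave out a control library.

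The few differences in the other direction were led by PPP1R10, a nuclear regulator of protein phosphatase 1. It held 11608 and 11938 in control and 794 and 981 with AT7519, and 12248 and 11687 with OSMI-2 against 1950 and 2467 with the combination, so it fell in both settings but less with OSMI-2 present (difference 1.29 ± 0.17, adjusted p = 0.00768). XRCC2, a homologous recombination factor, differed by 0.79 ± 0.14 and MGEA5 by 0.60 ± 0.11 (adjusted p = 0.0239). MGEA5 held 28414 and 24816 in control and 24781 and 23336 with AT7519 alone, all above its 19571 and 20927 with OSMI-2. The calls of PPP1R10, XRCC2 and MGEA5 did not hold when either control library was left out.

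Genes of cholesterol synthesis and uptake, which the factor SREBP2 switches on when membranes lack sterols, were set against the same test. Of 24 tested, 15 fell and 3 rose when AT7519 was added to OSMI-2 (median -0.52). With AT7519 alone, 2 fell and 10 rose (median 0.18). The difference was called lower for 10 of the 24 and was negative for 23, against 0.972% called lower over all genes. Leaving out 1 library lowered the count of 10 in every case but that of the second AT7519 library. In limma without the mean-variance trend, the difference was called lower for 0 of the 24. Without 1 control library in turn it was called for 1 of the 24, whereas edgeR called 10 and DESeq2 17.

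The regulator INSIG1 and the enzymes named next were lower with the combination. INSIG1, which holds SREBP in the endoplasmic reticulum, held 19028 and 13180 in control, 26376 and 33583 with OSMI-2, 14182 and 10558 with AT7519 alone, and 8531 and 10909 with both agents (fall of 1.63 ± 0.17, difference -1.25 ± 0.24). MSMO1, a sterol oxidase, held 11806 and 11069 in control, 18171 and 22623 with OSMI-2, 13109 and 12934 with AT7519 alone, and 11093 and 13524 with both agents (-0.73 ± 0.11, difference -0.91 ± 0.15). In INSIG1 and MSMO1 both OSMI-2 libraries were above all 6 others.

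MVD, which makes isopentenyl diphosphate, fell by 0.66 ± 0.10 and IDI1, the next enzyme, by 0.97 ± 0.10. FDFT1, squalene synthase, fell by 0.31 ± 0.09, which was no longer called without the second OSMI-2 library (-0.22) or the first combination library (-0.23). SREBF2, which encodes SREBP2, held 22266 and 25234 against 27664 and 31781 and rose by 0.32 ± 0.10, a change that turned to -0.01 with equal totals, -0.53 with equal mitochondrial messages and -0.04 after quantile normalisation, and that lost its call without the first OSMI-2 library (0.23) or the second combination library (0.22).

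The promoters of these genes were compared with others because NF-Y, a factor known to bind next to SREBP, recognises the letters CCAAT. In the 250 bases before the RefSeq gene start (GRCh38.p14), CCAAT on either strand occurred in 15 of the 18 cholesterol genes with an entry (83.3%), in 35.2% of the 11387 tested genes with an entry and in 32% of the 35116 promoters of the table. Among the 147 genes with an entry and a difference called lower, 69 held it (46.9%). GGGCGG, the GC box, was present in 17 of the 18 (94.4%) against 65.5% of the tested genes and 42.6% of the table. The other 6 motifs searched were each found in at most 2 of the 18. CACCCCAC, an SREBP element, occurred in 1 of them, SREBF2 (5.56%), against 2.24% of the tested genes. TATAAA, the TATA box, and CACGTG, the E-box, each occurred in 2 (11.1%), against 5.74% and 8.85%. The CRE letters TGACGTCA, the AP-1 letters TGANTCA and the CArG box occurred in 0 of the 18, against 2.78%, 3.87% and 0.966%. Stretches of 110 bases from 4 members follow, with CCAAT and its reverse ATTGG in capitals. These 4 were picked, by smallest p, from cholesterol genes with a called difference whose window holds the motif. Each stretch was placed around the first copy, so all had to contain it.
MSMO1: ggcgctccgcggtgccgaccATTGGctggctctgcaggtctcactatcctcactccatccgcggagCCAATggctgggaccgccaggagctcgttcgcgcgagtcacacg
MVD: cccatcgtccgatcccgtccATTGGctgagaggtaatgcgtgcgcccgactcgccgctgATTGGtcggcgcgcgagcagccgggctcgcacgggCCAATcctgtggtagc
MVK: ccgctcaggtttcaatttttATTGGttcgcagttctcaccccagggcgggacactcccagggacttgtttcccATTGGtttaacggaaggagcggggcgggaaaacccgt
INSIG1: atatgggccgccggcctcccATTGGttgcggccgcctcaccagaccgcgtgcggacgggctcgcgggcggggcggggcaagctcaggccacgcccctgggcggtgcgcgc
The stretches lie at chr4:165327464-165327573 (plus strand), chr16:88663161-88663270 (minus strand), chr12:109573564-109573673 (plus strand) and chr7:155297688-155297797 (plus strand), and end 95, 69, 120 and 80 bases before the start. MSMO1 holds 2 copies, MVD 3, MVK, the mevalonate kinase gene, 2 and INSIG1 1. A match of letters describes the window and does not show binding.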

How the data were processed

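The deposited table gives 1 column per library. The deposited values are a signal, normalised read counts per gene, and each is a whole multiple of its library's smallest value above 0. STAR, HTSeq, DESeq2 and the builds hg19 and GRCh37 are named without roles, per the submitters' processing notes. The sources used here give no versions, annotation, filters or counting strand. Libraries were made with a strand-specific TruSeq kit, per the labels' protocols. Dividing each column by its smallest step gave whole counts for 100% of values (tolerance 0.01). The 28 lines without a gene name were dropped, and 24629 genes were 0 in all 4 libraries compared.

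Values were taken to log2 with a pseudocount of 1 and fitted in limma 3.58.1 (R 4.3.3) with 4 group means over all 8 libraries and a mean-variance trend (4 residual and 10.1 prior degrees of freedom). The p-values are two-sided, with Benjamini-Hochberg adjustment over the 19540 genes of each contrast, and genes with an adjusted p below 0.05 are said to rise or fall. The fit was tested on simulated data. Alternatives were other pseudocounts, filters, scalings, the fit without trend or with the 4 libraries only, edgeR 4.0.16 and DESeq2 1.42.0 on recovered counts, a replicate block, and leaving out each library. Replicates differed by more than counting error (chi-square per degree of freedom 21.1 with OSMI-2 and 20.5 with the combination).

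The members and gene lists were chosen with earlier results of these data known. Genes are named by rule: the 15 largest rises and falls and the 5 smallest adjusted p in each direction of called genes averaging 50 or more, up to 3 rises and 3 falls per list, and genes of the study's theme. Some of these are not reported here. BTG1, CITED2, FDFT1, IDI1, LARP7, MSMO1, MVD, MVK, RPL36A, ZFP36L1 and host genes were added after their values were seen. Gene types, exons, spans and overlaps come from GENCODE release 29 (GRCh38) by symbol: 15089 members matched directly, 689 by an older symbol and 3762 (19.3%) did not. Promoters are from RefSeq (GRCh38.p14). The counts rest on an older build, so these serve as annotation only.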

Additional observations from a re-analysis of the deposited data

Results flagged for a closer look

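The effect of AT7519 differed with OSMI-2 present, by the limma test of the difference itself, for 30 genes named in the text. Values are log2 differences, the effect of AT7519 with OSMI-2 minus its effect without. Among cholesterol genes they were -1.25 for INSIG1, -0.91 for MSMO1, -0.86 for MVK, -0.82 for MVD, -0.74 for IDI1 and -0.69 for FDFT1. Among signal-responsive genes they were -2.35 for IER5, -2.27 for CYR61, -2.16 for CITED2, -1.95 for BTG2, -1.68 for BTG1, -1.54 for PLK2, -1.53 for KLF4, -1.36 for DUSP4, -1.21 for TOB2, -1.06 for TGIF1 and -0.80 for ZFP36L1. The remaining negative values were -1.34 for PPM1D, -1.09 for EFNA5, -1.01 for CDKN1B, -0.80 for CCNT1, -0.75 for NFE2L2, -0.73 for BRD2, -0.63 for PIK3R1, -0.60 for MCL1, -0.55 for MYC and -0.52 for NCOA2. Positive values were 1.29 for PPP1R10, 0.79 for XRCC2 and 0.60 for MGEA5. All 30 kept their sign without each library in turn, and 1 of them, EFNA5, was called each time. The kept signs are little support, as these fits share most of the libraries that gave the calls. Some genes were named because of these values, so the list is no measure of how often such differences occur. With 2 libraries per group, no group could be searched for libraries that stand apart gene by gene.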

How the results depend on the processing

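Counts of rises and falls stayed within 1.5 times of 5356 and 5298 in every alternative except scaling to equal totals or equal mitochondrial messages. With equal totals 2139 genes rose, and with equal mitochondrial messages 429 rose and 13526 fell. Leaving out each library in turn gave 4266 to 5573 rises, 4293 to 5523 falls and 8295 to 10566 calls for AT7519 against control, of which 48.7% were rises in the deposited scaling, 19.5% with equal totals and 2.5% with equal mitochondrial messages.

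The 202 differences between the AT7519 effects were the least stable of these counts: 33 without the filter on low values, 114 with upper-quartile scaling, 130 after quantile normalisation, 0 without the mean-variance trend in limma (1805 at an unadjusted p under 0.05, against 1977 with it; edgeR called 185), 565 with DESeq2, and 2 to 504 leaving out each library in turn. Nothing says whether equal numbers in the labels pair the libraries. Deviations from the group means correlated by 0.02 to 0.12 between groups, highest between OSMI-2 and the combination. Such weak correlations cannot decide whether the libraries were paired. With a replicate block 404 differences, 5521 rises, 5440 falls and 10664 calls for AT7519 against control were found.

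Of the 120 named genes that were called, 86 kept their call in every alternative and 113 without each library in turn, and the cause of the other changes was not tested. With equal mitochondrial messages the log2 change turned to -0.41 for BAD, -0.44 for BAX, -0.29 for BIRC5, -0.53 for CCNT2, -0.19 for CDK1, -0.15 for CDK4, -0.54 for CDK9, -0.46 for DUSP1, -0.19 for EEF2, -0.18 for FDXR, -0.21 for HSP90B1, -0.13 for HSPD1, -0.0767 for JUND, -0.22 for KLF10, -0.60 for KLK3, -0.40 for MGEA5, -0.0463 for NELFCD, -0.24 for NFKBIA, -0.54 for OGT, -0.13 for PKM, -0.0923 for RPL36A, -0.16 for SHMT2, -0.24 for SORD, -0.53 for SREBF2 and -0.30 for SUPT5H. With equal totals it turned to -0.0139 for CCNT2, -0.0231 for CDK9, -0.0831 for KLK3, -0.0199 for OGT and -0.0113 for SREBF2. After quantile normalisation it turned to -0.0343 for EEF2, -0.12 for HSP90B1, -0.48 for KLK3, -0.11 for OGT and -0.0411 for SREBF2. LARP7, near 0, turned to 0.0738 with upper-quartile scaling and ranged from -0.0708 to 0.0529 when each library was left out in turn.

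List medians turned too. With equal mitochondrial messages they were -0.85 for the ATF4 list, -0.82 for CDK inhibitors, -0.60 for endoplasmic reticulum genes, -0.72 for G1/S genes, -0.59 for NELF, DSIF and PAF1, -0.45 for antioxidant genes, -0.84 for androgen-responsive genes, -0.69 for cyclin L and splicing kinases, -0.47 for glycolysis, -0.50 for heat shock, -0.57 for hexosamine genes, -0.11 for the respiratory chain, -0.82 for other transcriptional kinases, -0.35 for the proteasome, -0.16 for small nucleolar RNA host genes, -0.34 for splicing factors and -0.24 for translation factors. With equal totals they were -0.33, -0.30, -0.0856 and -0.20 for the first 4 of these, -0.0712 for NELF, DSIF and PAF1, -0.32 for androgen-responsive genes, -0.17 for cyclin L and splicing kinases, -0.0483 for hexosamine genes and -0.30 for other transcriptional kinases. After quantile normalisation they were -0.0895 for ATF4, -0.0829 for CDK inhibitors, -0.13 for endoplasmic reticulum genes and -0.33 for androgen-responsive genes. Depth limits the lowest values: 66 genes had fewer than 3 reads in both combination libraries and 43 in both OSMI-2 libraries, so the size of their change is uncertain.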

Other observations

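Growth factor adaptors of the PI3K pathway fell with the signalling genes described above. Of 20 PI3K adaptor and FOXO genes 15 fell and 5 rose, with a median of -0.66. PIK3R1, the regulatory subunit of PI3K, held 16676 and 17078 normalised counts with OSMI-2 and 3875 and 3822 with the combination (-2.13 ± 0.09). IRS2, an insulin receptor adaptor, held 336 and 305 against 36.9 and 54.7 (-2.80 ± 0.28). Of 17 circadian clock genes 11 fell and 1 rose: BHLHE40, a repressor of the clock, held 2032 and 1854 against 404 and 319 (-2.43 ± 0.14), and the 1 that rose was PER1 (0.90 ± 0.20), which overlaps a coding gene on the same strand.

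Of 28 RNA decay genes 15 fell and 8 rose. DCP1A, a decapping cofactor, held 1296 and 1119 against 330 and 370 (-1.78 ± 0.15), and CNOT6L, a deadenylase, 4530 and 4107 against 1435 and 1382 (-1.61 ± 0.11). Of 21 antioxidant genes 13 rose and 6 fell. The regulator NFE2L2, which encodes NRF2, held 6883 and 5933 against 2298 and 2046 (-1.56 ± 0.10) and its target HMOX1, heme oxygenase, 952 and 567 against 261 and 197 (-1.69 ± 0.24), whereas TXN, thioredoxin, held 16353 and 14553 against 30732 and 25681 (0.86 ± 0.09). Of 28 glycolysis and hypoxia genes 18 rose and 8 fell, with the glycolytic enzyme PKM at 0.72 ± 0.07, which turned to -0.13 with equal mitochondrial messages.

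By gene type, 117 of 359 antisense RNAs fell (32.6%) and 42 rose (11.7%), and 71 of 257 long intergenic RNAs fell (27.6%) and 25 rose (9.73%). Over all matched genes 28.4% fell and 30% rose. Of 68 loci that the annotation types as snRNA, 34 rose and 5 fell, but 34 had a mean below 10 with OSMI-2 and passed only through the combination libraries. Among the other 34, 6 rose and 5 fell.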
